A study of Mus musculus with 6 samples.

Results

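The Rab small GTPase family was examined in M II oocytes of aged mice matured in vitro with or without quercetin. Members were taken by symbol from the gene counts, as protein-coding mouse genes named *Rab* with a number and an optional letter, and 59 of the 53465 genes in the table met this rule. Each of the 6 pools held 15 M II oocytes from 3 Kun Ming (KM) females aged 9 to 10 months, which served as naturally aged mice, and all females were primed with PMSG. The 3 control pools matured for 16 h in M16 medium without quercetin (0 μM), and the 3 quercetin pools in the same medium with 10 μM quercetin, a plant flavonol. Quercetin was dissolved in DMSO, and whether the control medium held DMSO is not stated in the sources used here. Only oocytes that had reached M II were pooled, so a value describes mature oocytes of several animals and not a single oocyte or mouse.

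Rab proteins are small GTPases that work as switches on membranes. They bind effectors such as tethers and motors in the GTP-bound form, are turned on by exchange factors, are turned off by GTPase-activating proteins, and are taken on and off membranes by escort proteins and GDP dissociation inhibitors. Each Rab marks its own compartments, from the ER and Golgi to endosomes, lysosomes and secretory granules. In mouse oocytes, Rab11a-positive vesicles carry actin nucleators and move with myosin V, a system known for the movement of the meiotic spindle to the cortex. Rab27a is known for bringing cortical granules to the cortex, and Rab3a for the release of these granules, which prevents polyspermy after fertilization.

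The coding stretch around the phosphate-binding loop is printed for members on which the results below turn. In a Rab this loop binds phosphates of GTP, and the stretch lets members with the same number be compared base by base. Capitals mark the codons of the loop, and all stretches are read 5′ to 3′ on the coding strand from GENCODE M21 transcripts on GRCm38.
*Rab11a*: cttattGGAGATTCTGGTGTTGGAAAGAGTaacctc
*Rab11b*: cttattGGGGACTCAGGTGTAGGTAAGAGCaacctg
*Rab3a*: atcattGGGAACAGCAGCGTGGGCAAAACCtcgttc
*Rab3d*: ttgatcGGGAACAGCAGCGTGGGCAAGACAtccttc
*Rab27a*: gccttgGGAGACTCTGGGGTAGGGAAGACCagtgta
*Rab8a*: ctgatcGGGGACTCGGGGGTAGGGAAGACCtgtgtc
*Rab8b*: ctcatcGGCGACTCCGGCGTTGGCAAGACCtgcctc

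The *Rab11a* stretch lies in exon 2 at chr9:64728389-64728424 (minus strand) and covers loop codons 18 to 25 of 216. That of *Rab11b* lies in exon 2 at chr17:33749937-33749972 (minus strand). The *Rab3a* stretch lies in exon 2 at chr8:70755934-70755969 (plus strand), and that of *Rab3d* in exon 2 at chr9:21915819-21915854 (minus strand). The *Rab27a* stretch lies in exon 2 at chr9:73075454-73075489 (plus strand). The *Rab8a* stretch lies in exon 1 at chr8:72161395-72161430 (plus strand), and that of *Rab8b* in exon 1 at chr9:66919562-66919597 (minus strand). Such a loop was found in 57 of the 59 coding sequences. The exceptions were *Rab40b* and *Rab40c*.

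When whole coding sequences were aligned, members with the same number were identical at between 64.3% (*Rab7* and *Rab7b*) and 79.3% (*Rab3b* and *Rab3d*) of the aligned positions, gaps left out. Identity was 76.6% for *Rab11a* and *Rab11b*, 79.2% for *Rab8a* and *Rab8b* and 76.9% for *Rab3a* and *Rab3d*. The longest run of bases shared without a difference was 38, between *Rab1a* and *Rab1b*. A coding read longer than this carries at least 1 base that differs between such members, which bears on the comparison of paralogues below.

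Total counts ran from 7880467 to 9938743 per pool, and 3 counts, taken as the floor of detection, came to between 0.302 and 0.381 CPM (counts scaled to library size). That floor covers counting error only, since amplified reads are not independent molecules. All 10 oocyte markers averaged over 1 CPM, with summed levels from 18562 to 21166 CPM in control and from 21149 to 22493 CPM in quercetin pools. *Dppa3* (8211 CPM on average in control and 8878 CPM in quercetin pools) and *Gdf9* (5741 and 6705 CPM) led this sum, while *Ooep* averaged lower with quercetin (716 and 380 CPM). Single markers were less even than the sum, and *Zp2* ran from 131 CPM in quercetin replicate 1 to 1554 CPM in control replicate 2. Of 13 cumulus and granulosa markers, 4 were at 0 in every pool (*Foxl2*, *Amh*, *Amhr2* and *Ptx3*), and the summed level ran from 62.5 to 78.3 CPM in control and from 79.5 to 84.96 CPM in quercetin pools. The other lists overlapped between the groups. The 6 leukocyte and red cell markers (*Hbb-bs* and *Hba-a1* at 0) ran from 10.3 to 17.1 CPM in control and from 12.1 to 13.6 CPM in quercetin pools, and the 6 stroma, theca and endothelium markers (*Col1a1* and *Cdh5* at 0) from 32.7 to 37.9 CPM and from 34.2 to 40.5 CPM. The cumulus and granulosa sum was higher in all quercetin pools, and its part in the results below was not tested. *Cyp19a1* carried most of this sum, at 64.1 CPM on average in control and 74.4 CPM in quercetin pools, while *Fshr* (1.33 and 1.01 CPM) and *Ptgs2* (2.08 and 1.31 CPM) averaged lower with quercetin.

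Quercetin replicate 3 stood apart from quercetin replicates 1 and 2. Among the 11842 tested genes, 12.3% had quercetin replicates 1 and 2 below every control pool and replicate 3 not, and 8.93% had replicates 1 and 2 above every control pool and replicate 3 not. When quercetin replicate 1 was the one set apart, these shares were 4.48% and 3.15%, and for quercetin replicate 2 they were 4.3% and 3.45%. Results are therefore given with and without replicate 3 where they rest on it.

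Rab transcripts were a small and steady share of the reads counted to genes. They took 0.252%, 0.234% and 0.266% of the counts in control replicates 1 to 3, and 0.2499%, 0.263% and 0.249% in quercetin replicates 1 to 3, so the groups overlapped. Of the 59 members, 52 had at least 1 count and 34 had at least 3 counts in every pool. The 7 members at 0 in every pool were *Rab7b*, *Rab19*, *Rab26*, *Rab27b*, *Rab37*, *Rab39* and *Rab42*, which allows a level of up to 0.302 to 0.381 CPM depending on the pool. A further 19 members had counts but did not pass the filter on low counts, with at most 13 counts in any pool. The remaining 33 were tested, and they are the members with enough reads for a comparison and not the whole family.

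Levels of different genes were compared per exon length (RPKM, TMM-scaled CPM per kilobase of annotated exons, mean ± SD over all 6 pools). *Rab11a*, which sits on recycling endosomes, was the highest at 109.8 ± 16.7 RPKM. *Rab7*, which governs the step from late endosome to lysosome, followed at 94.9 ± 18.7 RPKM, and *Rab2a*, a Rab of ER-to-Golgi traffic, at 80.7 ± 7.83 RPKM. The spreads of these neighbours overlapped. The 6 pools of *Rab11a* ran from 89.9 to 132.2 RPKM, those of *Rab7* from 78.4 to 123.6 RPKM and those of *Rab2a* from 66.8 to 86.5 RPKM.

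*Rab14*, of the recycling endosome and the trans-Golgi network, came next at 60.04 ± 4.81 RPKM and could not be separated from *Rab9*, which returns cargo from late endosomes to the Golgi, at 59.5 ± 4.81 RPKM. *Rab8b* (42.2 ± 7.13 RPKM) and *Rab10* (36.8 ± 3.42 RPKM), both of polarized exocytosis, and *Rab6a* of the Golgi (33.5 ± 15.7 RPKM) formed the next step, again with overlapping spreads. *Rab18*, of the ER and lipid droplets, was at 16.8 ± 2.43 RPKM and *Rab4a*, of fast recycling, at 13.4 ± 2.74 RPKM. The first 5 of these held 64.5% of the summed RPKM of the family and all 10 held 87.3%. High levels were thus not tied to 1 compartment, since recycling, late endosomal, Golgi and exocytic Rabs were all among the 10.

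The order at the top depended on which length was used. The annotated exons of *Rab14* add up to 13589 bases over 13 transcripts, while its longest transcript has 5003, and per longest transcript *Rab14* was the highest member at 163.1 RPKM against 140.6 RPKM for *Rab11a*. In reads alone, *Rab14* held 32.2% of all Rab counts. The same 10 members led by both lengths.

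**Figure D1:**
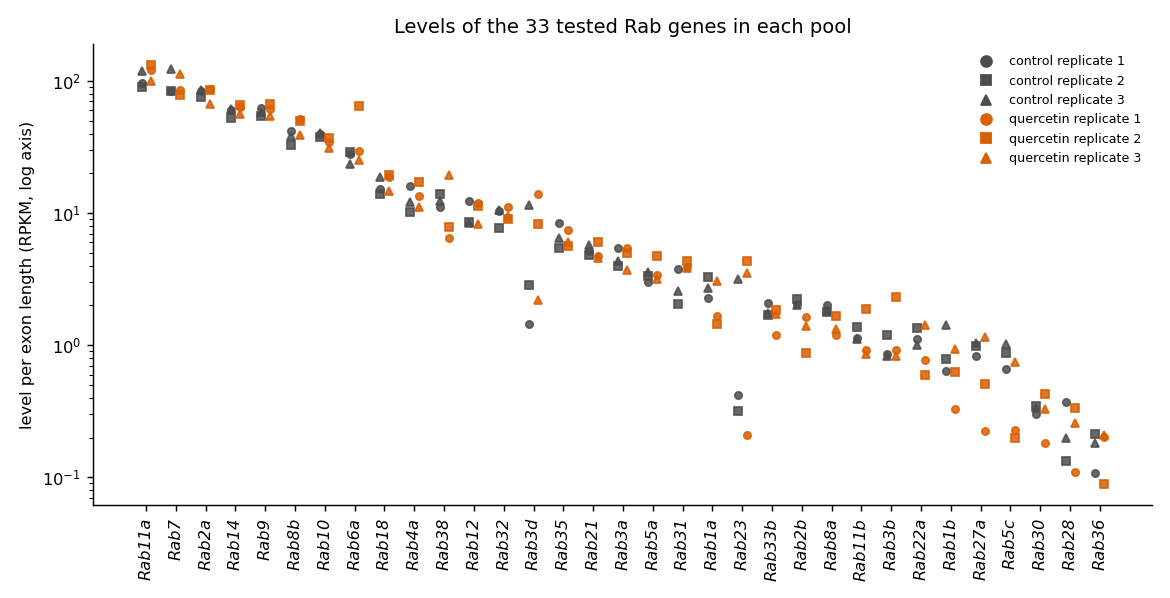
Level of each of the 33 tested Rab genes (RPKM on a log axis, exon length as annotated) in each of the 6 pools, ordered by mean; grey is control and orange is quercetin, and the symbol gives the replicate. Pools of *Rab11a* lie between 89.9 and 132.2 RPKM, while the pools of *Rab3d* and *Rab23* are spread far more widely than those of their neighbours.

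The 3 members with known roles in the spindle or the cortical granules had very different levels. *Rab11a* (ENSMUSG00000004771, chromosome 9, 64715299 to 64737758, minus strand) had 2586, 2246 and 3198 counts in control and 2886, 3616 and 2534 in quercetin pools. *Rab3a* (ENSMUSG00000031840, chromosome 8, 70754679 to 70758677, plus strand) was far lower at 4.66 ± 0.75 RPKM, with 109, 74 and 86 counts in control and 97, 101 and 71 in quercetin pools. *Rab27a* (ENSMUSG00000032202, chromosome 9, 73044854 to 73097629, plus strand) was the lowest of the 3 at 0.791 RPKM on average. Its counts were 29, 32 and 36 in control and 7, 18 and 38 in quercetin pools.

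Most shared numbers had their transcripts mainly from 1 member. The family has 14 numbers that are shared by several members, 31 members in all, and in 10 of these 14 the highest member held over 90% of the RPKM of its number. In 11 of 14 the same member was the highest in all 6 pools. *Rab11a* exceeded *Rab11b* by 90.6-fold (109.8 against 1.21 RPKM), *Rab2a* exceeded *Rab2b* by 47.3-fold (80.7 against 1.71 RPKM) and *Rab8b* exceeded *Rab8a* by 25.7-fold (42.2 against 1.64 RPKM). *Rab9* exceeded *Rab9b* by 420-fold (59.5 against 0.142 RPKM), with only 29 counts of *Rab9b* over the 6 pools.

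For several numbers the second member was close to or at 0. *Rab6a* had 6536 counts over all pools against 5 of *Rab6b*, *Rab4a* had 1225 against 11 of *Rab4b*, and *Rab7* had 12860 against 0 of *Rab7b*. *Rab27a* had 160 counts and *Rab27b* 0. *Rab5a*, the better known of the early endosome Rabs, was at 3.54 RPKM against 0.622 for *Rab5c* and 0.0796 for *Rab5b*. *Rab1a* was at 2.41 RPKM against 0.791 for *Rab1b*, the smallest lead among the tested pairs with 1 leading member in every pool.

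The leading member changed between pools for the Rab3 and Rab40 members. *Rab39* was at 0 in every pool, and in quercetin replicate 2 *Rab39b* was at 0 too, so that pool had no leader. The Rab39 and Rab40 members were at or near 0, whereas several Rab3 members, which act in regulated secretion, were well detected. *Rab3d* averaged 6.69 RPKM, *Rab3a* 4.66 RPKM, *Rab3b* 1.16 RPKM and *Rab3c* 0.0584 RPKM, but *Rab3d* ran from 1.44 to 13.8 RPKM and *Rab3a* from 3.74 to 5.48 RPKM. *Rab3d* was above *Rab3a* in control replicate 3 and quercetin replicates 1 and 2 and below it in the other 3 pools. The order of these 2 genes therefore did not hold in all pools.

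**Figure D2:**
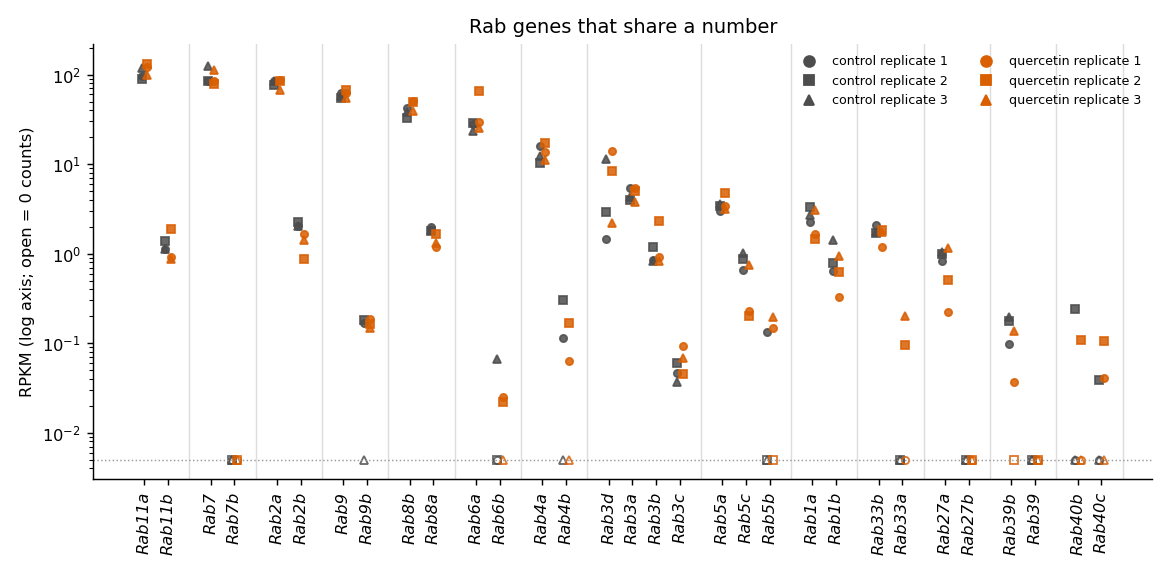
Level (RPKM, log axis) in each of the 6 pools of the 31 Rab genes that share a number with another member, in blocks of 1 number; open symbols on the dotted line are pools with 0 counts. In 10 of the 14 blocks the highest gene holds over 90% of the RPKM, and the Rab3 block is the one in which high levels change places between pools.

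Some levels could include reads of neighbouring or copied genes, or lack reads that were dropped as ambiguous, because the strand setting and the treatment of reads that match several genes are not stated. For *Rab2b*, 64.0% of the exon length lies under exons of genes on the opposite strand, among them *Gm43766* (45, 39 and 53 counts in control, 41, 94 and 69 in quercetin pools) and *Tox4*. For *Rab6a* this share is 19.0%, with *Mrpl48* (149, 167 and 160 against 124, 110 and 171 counts). For *Rab7*, 18.4% of its sequence, in words of 31 bases, also occurs in other transcripts, chiefly a pseudogene, *Rab7-ps1*, with 310, 293 and 419 counts in control and 290, 362 and 328 in quercetin pools. For *Rab2a* this share is 10.7%. For *Rab4b*, 65.0% of the exon length lies under *Gm21983* on the same strand and 62.7% of its sequence is shared, so its 11 counts are uncertain. *Rab3a* and *Rab27a* had at most 5.1% of either kind.

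Quercetin was then compared with control, which asks whether pools matured with quercetin differed in the relative level of Rab transcripts. A gene was called where edgeR's quasi-likelihood test gave it an adjusted p below 0.05 together with a more than 2-fold difference. This called no member, and no other gene either (0 of 11842, 0%). DESeq2 called 12 genes and edgeR's likelihood ratio test 16, with no member among them. Of the 33 tested members, 17 were higher and 16 lower, with a median log2 fold change (quercetin over control) of 0.02, beside -0.03 over all tested genes. The adjusted p ranged from 0.988 to 0.999. At an unadjusted p under 0.05 there was 1 member, *Rab2b*, which is 1 of 33 beside 4.03% of all tested genes. DESeq2 gave 0 members at this level and 0 after adjustment.

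The differences of most members were small. The median size of the log2 fold change was 0.19, and 20 of the 33 lay within 0.25 of 0 in either direction, while the median SD between pools of a group was 0.32 on the log2 scale. Among the 10 most abundant members the log2 fold change ran from -0.20 (*Rab10*) to 0.56 (*Rab6a*). The width of the 95% intervals differed between these genes, from -0.23 to 0.39 for *Rab14* to -0.17 to 1.30 for *Rab6a*. In counts simulated from these pools, 12.5% of genes changed 2-fold were called and 83.9% of those changed 4-fold. A call also needs a fitted change over 2-fold, which by itself keeps the first share low. The changed genes were drawn from all tested genes and not from the members. The simulated pools were drawn independently, so the step of quercetin replicate 3 was not built in.

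**Figure D3:**
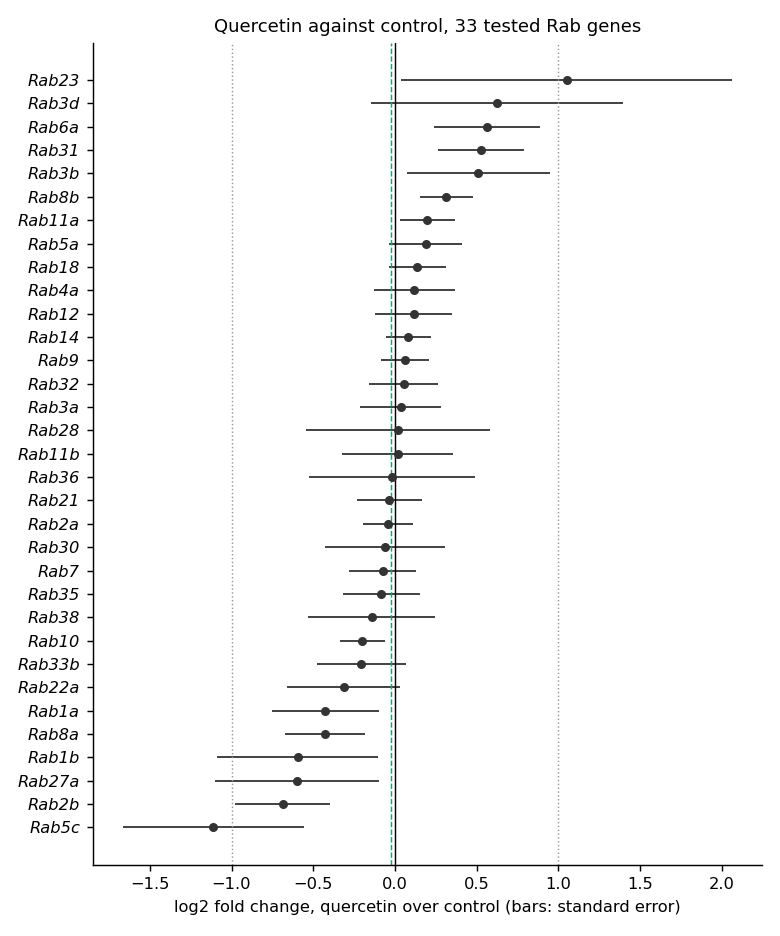
Log2 fold change of quercetin over control with its standard error for the 33 tested Rab genes, from edgeR; dotted lines mark a fold change of 2 and the dashed line the median of all tested genes (-0.03). The points lie on both sides of 0, and the outermost genes, *Rab23* (1.05) and *Rab5c* (-1.11), also have long error bars.

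For *Rab11a*, the 3 control pools had 289, 269 and 359 CPM and the quercetin pools 361, 396 and 297 CPM. Quercetin replicates 1 and 2 were above all controls and replicate 3 lay within them, so the groups overlapped. The log2 fold change was 0.20 (SE 0.17, 95% interval -0.18 to 0.58, edgeR adjusted p = 0.988), and a two-sided exact permutation test gave p = 0.2, where 0.1 is the smallest p that 3 pools against 3 allow. Leaving out 1 pool moved it between 0.11 (without quercetin replicate 2) and 0.34 (without control replicate 3), and without quercetin replicate 3 it was 0.31 (SE 0.16).

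*Rab3a* had 12.2, 8.86 and 9.65 CPM in control and 12.1, 11.1 and 8.33 CPM in quercetin pools. The groups covered nearly the same range, and the direction turned with the scaling. The log2 fold change was 0.04 (SE 0.25, 95% interval -0.53 to 0.60, edgeR adjusted p = 0.999) and the exact permutation p was 1.0. By library size alone it was -0.06.

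*Rab27a* had 3.24, 3.83 and 4.04 CPM in control and 0.875, 1.97 and 4.46 CPM in quercetin pools. Quercetin replicates 1 and 2 were below all controls, and replicate 3 was above all of them. Over all pools the log2 fold change was -0.60 (SE 0.50, 95% interval -1.74 to 0.54, edgeR adjusted p = 0.988, exact permutation p = 0.4). Without quercetin replicate 3 it was -1.36 (SE 0.43, edgeR adjusted p = 0.293), and without quercetin replicate 1, the lowest pool, it was -0.21.

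Among the Rabs of regulated secretion as a group, 4 of 8 were tested, 3 were higher and 1 lower, and none passed the test. *Rab3b* had 3.02, 4.19 and 2.92 CPM in control and 3.25, 8.20 and 2.93 CPM in quercetin pools. Only quercetin replicate 2 was outside the range of the controls by more than 1 CPM. *Rab3d* had the most uneven pools, as given below.

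Of the 9 tested Rabs of the ER and Golgi, the role with the most tested members, 7 were lower, beside 53.6% of all tested genes. Their median log2 fold change was -0.06, and 1 of them had an unadjusted p under 0.05 in edgeR's test. *Rab2b* (ENSMUSG00000022159, chromosome 14, 52261759 to 52279545, minus strand) had 8.50, 9.34 and 8.41 CPM in control and 6.87, 3.61 and 5.87 CPM in quercetin pools. All quercetin pools were below all control pools. Its log2 fold change was -0.69 (SE 0.29, edgeR unadjusted p = 0.0422, adjusted p = 0.988; exact permutation p = 0.1), and the overlap with genes on the opposite strand described above applies to it. Leaving out 1 pool moved it between -0.89 and -0.46, and edgeR's unadjusted p stayed under 0.05 only without quercetin replicate 1. Without quercetin replicate 3 it was -0.74 (SE 0.32, edgeR unadjusted p = 0.0519). Its far more abundant paralogue *Rab2a* had 180, 162 and 182 CPM in control and 185, 182 and 143 CPM in quercetin pools, with a log2 fold change of -0.04 (SE 0.15).

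*Rab1a* and *Rab1b*, which act between the ER and the Golgi, had log2 fold changes of -0.43 (SE 0.33) and -0.59 (SE 0.49). *Rab1a* had 8.61, 12.6 and 10.3 CPM in control and 6.37, 5.47 and 11.6 CPM in quercetin pools, so that quercetin replicate 3 lay within the controls and the other quercetin pools below them. *Rab1b* had between 6 and 29 counts a pool and its groups overlapped. Its log2 fold change was -0.97 (SE 0.55) without quercetin replicate 3 and -0.17 without control replicate 3. *Rab6a* had 105, 109 and 88.3 CPM in control and 109, 243 and 94.3 CPM in quercetin pools. Only quercetin replicate 2 was well above the rest, and the log2 fold change was 0.56 with it and 0.02 without it.

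Of the exocytic Rabs, *Rab8a* and *Rab8b* lay on opposite sides of control. *Rab8a* had 9.40, 8.38 and 8.64 CPM in control and 5.62, 7.77 and 6.22 CPM in quercetin pools, all quercetin pools being lower (log2 fold change -0.43, SE 0.24, edgeR adjusted p = 0.988; exact permutation p = 0.1). *Rab8b* had 198, 156 and 180 CPM in control and 242, 236 and 186 CPM in quercetin pools. Here the groups overlapped (0.31, SE 0.16, edgeR adjusted p = 0.988; exact permutation p = 0.2). The difference between the 2 genes was not tested.

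*Rab10* had 139, 133 and 142 CPM in control and 121, 130 and 110 CPM in quercetin pools. All quercetin pools were lower, by a small amount (log2 fold change -0.20, SE 0.14, 95% interval -0.51 to 0.11, edgeR adjusted p = 0.988; exact permutation p = 0.1). In all, 3 members (*Rab2b*, *Rab8a* and *Rab10*) were lower in every quercetin pool, beside 5.15% of all tested genes, and 1 (*Rab31*) was higher in every quercetin pool, beside 5.43%. *Rab31*, a Rab of endosomes and the trans-Golgi network, had 14.4, 7.78 and 9.76 CPM in control and 14.9, 16.5 and 14.8 CPM in quercetin pools (0.53, SE 0.26, edgeR adjusted p = 0.988). The gap between the highest control and the lowest quercetin pool was small, and by library size alone the groups overlapped.

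The other tested recycling and late endosomal Rabs had overlapping groups, as *Rab11a* did. Their 95% intervals allow differences in either direction, such as -0.75 to 0.79 for *Rab11b* and -0.54 to 0.39 for *Rab7*. *Rab14* had 823, 717 and 838 CPM in control and 869, 888 and 761 CPM in quercetin pools (log2 fold change 0.08, SE 0.14). It was 0.15 (SE 0.12) without quercetin replicate 3 and 0.02 without control replicate 2. *Rab7* had 220, 220 and 323 CPM in control and 224, 205 and 295 CPM in quercetin pools (-0.08, SE 0.21). Replicate 3 was the highest of its group for *Rab7* in both groups. *Rab9* (0.06, SE 0.15), *Rab4a* (0.12, SE 0.25) and *Rab11b* (0.02, SE 0.34) also had overlapping groups, and so did *Rab18* (0.14, SE 0.18). For *Rab11b*, *Rab14* and *Rab9* the sign turned when counts were scaled by library size alone, to -0.09, -0.005 and -0.03.

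A fold change over 2 was fitted for 2 members, beside 1.57% of all tested genes, and neither passed the test. *Rab5c* of early endosomes (ENSMUSG00000019173, chromosome 11, 100715009 to 100738215, minus strand) had 13, 16 and 20 counts in control and 4, 4 and 14 in quercetin pools. In CPM these were 1.45, 1.92 and 2.24 against 0.5, 0.437 and 1.64, so quercetin replicate 3 lay within the controls. The log2 fold change was -1.11 (SE 0.55, edgeR adjusted p = 0.988; exact permutation p = 0.2), and without quercetin replicate 3 it was -1.97 (SE 0.53, edgeR adjusted p = 0.241). *Rab5a*, which has the same role and is more abundant, had a log2 fold change of 0.19 (SE 0.22).

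*Rab23*, known for ciliary and Hedgehog signalling, was the other. Its counts were 31, 22 and 233 in control and 14, 327 and 250 in quercetin pools. Each group thus held both low and high pools. The log2 fold change of 1.05 had an SE of 1.01 (edgeR adjusted p = 0.988; exact permutation p = 0.8). Its SD within groups, 2.07 on the log2 scale, was at the 99.7th percentile of all tested genes.

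*Rab3d* behaved likewise, with 54, 101 and 428 counts in control and 465, 319 and 79 in quercetin pools. Control replicate 3 was high among the controls and quercetin replicate 3 low among the quercetin pools. Its SD within groups of 1.43 was at the 98.8th percentile, and the log2 fold change was 0.63 (SE 0.77, edgeR adjusted p = 0.988). Without control replicate 3, which was the high control for both genes, the log2 fold change was 2.87 for *Rab23* and 1.92 for *Rab3d*. Other omissions brought it down, to 0.53 for *Rab23* without quercetin replicate 2 and to 0.004 for *Rab3d* without quercetin replicate 1. The median SD within groups of the 33 members was 0.32.

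The step between quercetin replicate 3 and the other quercetin pools ran through the family too. For 6 members (*Rab1a*, *Rab1b*, *Rab5c*, *Rab22a*, *Rab27a* and *Rab38*) quercetin replicates 1 and 2 were below every control pool and replicate 3 was not, 6 of 33 beside the 12.3% of all tested genes given above. For 4 members (*Rab6a*, *Rab8b*, *Rab11a* and *Rab14*) replicates 1 and 2 were above every control pool and replicate 3 was not, beside 8.93%. *Rab38* and *Rab22a* were named after their values were seen. *Rab38*, which acts on lysosome-related organelles, had 158, 183 and 173 counts in control and 82, 113 and 263 in quercetin pools. *Rab22a*, of early endosomes, had 72, 81 and 64 counts in control and 45, 39 and 87 in quercetin pools. For both genes replicate 3 was above all controls and the other quercetin pools below all of them.

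Without quercetin replicate 3, 7 members had an unadjusted p under 0.05, beside 12.8% of all tested genes in the same fit. *Rab1a* (log2 fold change -0.83, SE 0.27), *Rab5c*, *Rab22a* (-0.75, SE 0.28), *Rab27a* and *Rab38* (-0.80, SE 0.22) were lower, and *Rab6a* (0.81, SE 0.30) and *Rab8b* (0.43, SE 0.14) were higher. After adjustment over all genes none was called, with adjusted p from 0.241 to 0.334 in edgeR's test.

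**Figure D4:**
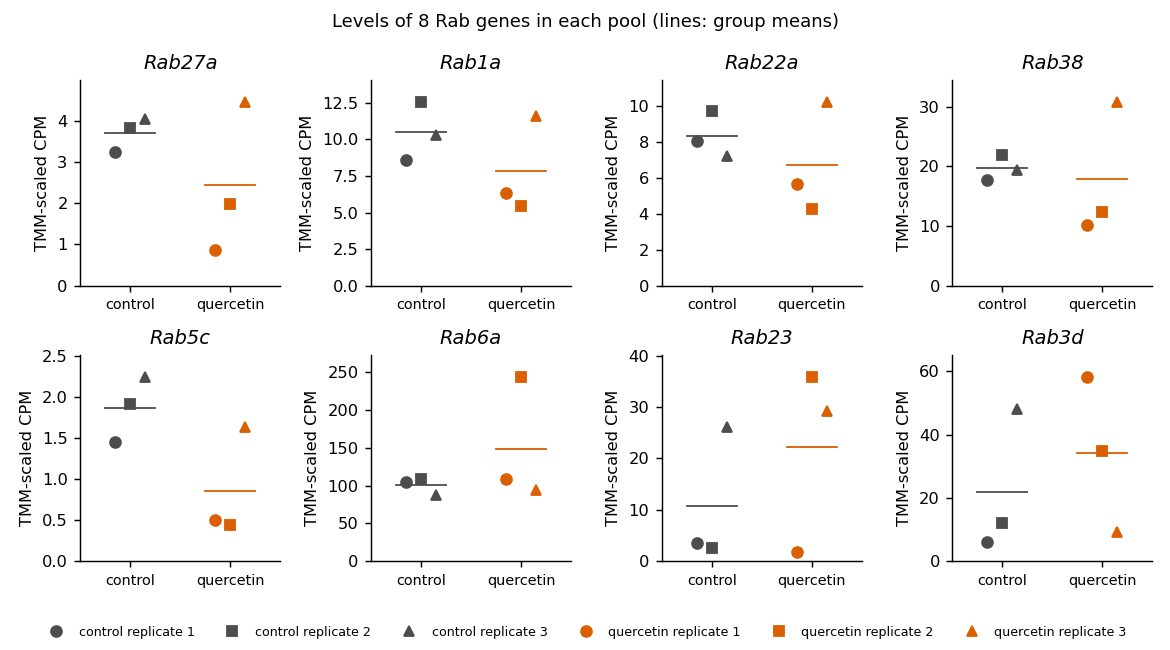
TMM-scaled CPM of 8 Rab genes in the 3 control (grey) and 3 quercetin (orange) pools, on axes that start at 0, with a line at each group mean. *Rab27a*, *Rab1a*, *Rab22a*, *Rab38* and *Rab5c* have quercetin replicate 3 (triangle) far above the other quercetin pools, *Rab6a* has 1 high pool, and *Rab23* and *Rab3d* have low and high pools in both groups.

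The proteins that switch, move and read Rabs were examined next, as 151 genes in lists of the Rab cycle and of effectors. Of these 108 were tested and 9 were at 0 in every pool. None was called. There were 42 higher and 66 lower, where 53.6% of all tested genes were lower. The median log2 fold change was -0.04, beside -0.03 over all tested genes. Of the 108, 5 were higher and 6 lower in every quercetin pool than in every control pool. Over all tested genes, 5.43% were higher and 5.15% lower in this way. At an unadjusted p under 0.05 there were 4 genes, 1 higher and 3 lower, beside 2.14% and 1.89% of all tested genes.

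Among these 4, *Rilpl1*, an effector that binds phosphorylated Rab8 and Rab10, had 60, 53 and 46 counts in control and 16, 28 and 33 in quercetin pools. All quercetin pools were lower (log2 fold change -1.02, SE 0.32, edgeR unadjusted p = 0.0107, adjusted p = 0.988). *Ppm1h*, the phosphatase that removes this phosphate from Rabs, had 204, 192 and 174 counts in control and 122, 126 and 142 in quercetin pools (-0.52, SE 0.20, edgeR unadjusted p = 0.0282, adjusted p = 0.988). These groups did not overlap either. The kinases that add the phosphate, *Lrrk1* and *Lrrk2*, had 8 and 28 counts over all pools and were not tested.

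*Myrip*, which links Rab27a on granules to myosin and actin, had 11, 12 and 16 counts in control and 3, 3 and 8 in quercetin pools (log2 fold change -1.42, SE 0.52, edgeR unadjusted p = 0.0240, adjusted p = 0.988). The quercetin pools were all below the control pools, at counts near the floor. *Madd*, the exchange factor of Rab3 and Rab27, had 20, 20 and 20 counts in control and 31, 28 and 36 in quercetin pools (0.69, SE 0.30, edgeR unadjusted p = 0.0473, adjusted p = 0.988). It was higher in all quercetin pools. Of the 8 tested Rab3 and Rab27 effectors, 2 were higher and 6 lower, where 53.6% of all tested genes were lower. Their median log2 fold change was -0.24. The one with the most reads, *Sytl4*, a granule-docking effector, was at 268 ± 15.97 CPM in control and 305 ± 29.0 CPM in quercetin pools (mean ± SD, n = 3 each).

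The partners of *Rab11a* lay on both sides of control. Of 7 tested Rab11 effectors and myosins V, 3 were higher and 4 lower, and none passed the test. *Myo5b*, the myosin V that moves Rab11a vesicles, had 1442, 1350 and 1772 counts in control and 1093, 835 and 2320 in quercetin pools. It again had quercetin replicate 3 above the controls and the other quercetin pools below them.

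All 5 tested Rab5 effectors and all 3 tested Rab7 effectors were lower, where 53.6% of all tested genes were lower. Their medians were -0.26 and -0.12, and none passed the test. *Eea1*, the early endosome tether, was at 139 ± 6.89 CPM in control and 122 ± 17.4 CPM in quercetin pools, and *Fyco1*, which links late endosomes to kinesin, at 133 ± 26.3 CPM and 121 ± 9.48 CPM (mean ± SD, n = 3 each). Of 7 tested Golgi effectors 3 were higher and 4 lower. *Kif20a*, a mitotic kinesin that binds Rab6, was at 202 ± 6.90 CPM in control and 241 ± 17.8 CPM in quercetin pools, which did not overlap (edgeR adjusted p = 0.988).

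In the cycle itself, 37 exchange factors, 29 GTPase-activating proteins and 8 genes of prenylation and shuttling were tested. *Tbc1d15*, a GTPase-activating protein of Rab7, stood out by level. It had 3261, 2996 and 3344 CPM in control and 4166, 3664 and 3931 CPM in quercetin pools, and in each pool its reads alone outnumbered those of all Rab members together. It was higher in every quercetin pool (log2 fold change 0.29, SE 0.13, edgeR unadjusted p = 0.0553, adjusted p = 0.988). *Dennd6a*, an exchange factor for Rab14, had the most reads of the exchange factors and was at 941 ± 94.4 CPM in control and 897 ± 206 CPM in quercetin pools (mean ± SD, n = 3 each). Per exon length it was below *Trappc2*, at 110.2 against 203.1 RPKM.

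*Gdi2*, the dissociation inhibitor that keeps Rabs in the cytosol, had 290, 291 and 305 CPM in control and 264, 263 and 271 CPM in quercetin pools. All quercetin pools were lower (log2 fold change -0.15, SE 0.12, edgeR adjusted p = 0.988). *Chml*, a Rab escort protein named here after its values were seen, had 70, 54 and 49 counts in control and 3, 4 and 69 in quercetin pools. Its log2 fold change was -1.15 (SE 0.88), and it was called only when quercetin replicate 3 was left out.

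**Figure D5:**
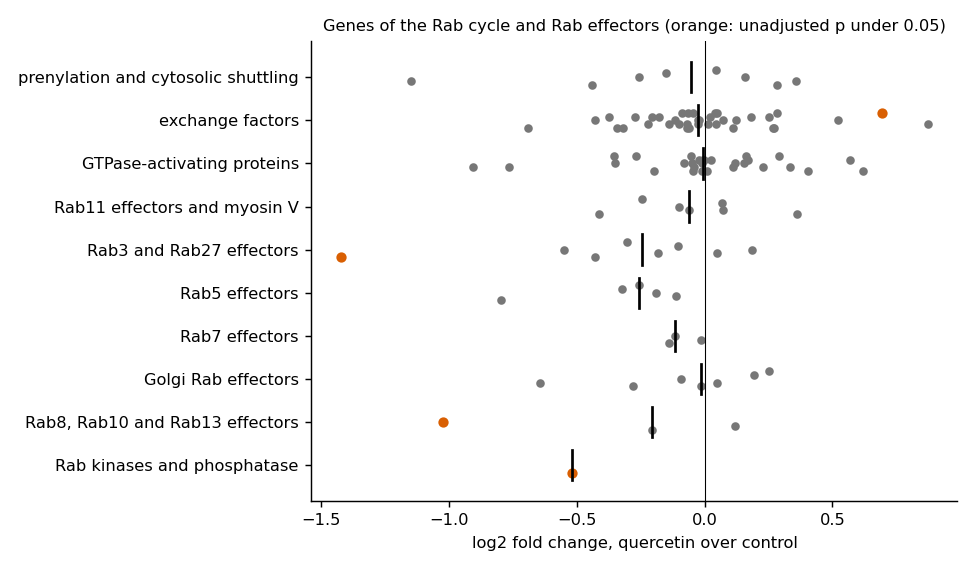
Log2 fold change of quercetin over control for the 108 tested genes of the Rab cycle and Rab effectors, 1 point a gene, with a bar at the median of each list; orange points have an unadjusted p under 0.05 in edgeR's test. In lists with at least 7 tested genes the points lie on both sides of 0, and the 4 orange points are *Madd* (0.69), *Ppm1h* (-0.52), *Rilpl1* (-1.02) and *Myrip* (-1.42).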

How the data were processed

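RNA of 6 oocyte pools was sequenced on polyadenylated cDNA (smart-seq HT Kit, Illumina NovaSeq). The authors deposited raw counts of reads per Ensembl gene in each pool. The study's methods name Hisat2 and GRCm38.91, while the submitters' processing notes list CASAVA 1.8, TopHat2 2.0.6 and mm10. The counting program and its settings are not given in the sources used here. Fewer oocytes and less RNA per oocyte cannot be told apart in pools. Gene names matched 53274 of 53465 identifiers, and annotation and coding sequences came from GENCODE M21 (GRCm38). Pools were grouped by their labels. Nothing in them says that pools came from separate cultures. The p-values set the difference between groups against the spread between these pools, which may not be independent replicates of the treatment.

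Genes passing filterByExpr (minimum count 10, 11842 of 24476 with a count) were tested with edgeR 4.0.16 (TMM, quasi-likelihood, Benjamini-Hochberg over all tested genes, R 4.3.3). Standard errors come from the F statistic. CPM used TMM-scaled library sizes, the log2 scale of the exact permutation tests a prior count of 2, and RPKM the exon union. The fit was tested on simulated data with changed genes. Alternatives were DESeq2 1.42.0, limma-voom (limma 3.58.1), the likelihood ratio test, other scalings and filters, leaving out each pool, and a replicate block. Python 3.11.15, pandas 2.3.3, Biopython 1.88 and matplotlib 3.10.9 were used.

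Members and lists were chosen with earlier results of these data known. Named were *Rab11a*, *Rab27a* and *Rab3a*, the 10 members highest in RPKM, the 5 largest and 5 smallest log2 fold changes, members with an unadjusted p under 0.05, their paralogues, and from each list of partners the genes with an unadjusted p under 0.05 or otherwise the one with the highest mean CPM.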

Additional observations from a re-analysis of the deposited data

How the results depend on the processing

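The number of Rab members called was 0 under every alternative run. Over all genes the count of 0 became 3 without a filter, 12 with DESeq2, 16 with the likelihood ratio test and between 0 and 7 when 1 pool was left out. Members with an unadjusted p under 0.05 (1) numbered 2 by library size only, with the likelihood ratio test and with limma-voom, 0 with DESeq2, and between 0 and 7 when 1 pool was left out (0 without control replicate 2 or quercetin replicate 2, 7 without quercetin replicate 3). Called genes of the Rab cycle and effectors ran from 0 to 1 when 1 pool was left out.

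Of the named log2 fold changes, 299 values under alternatives kept their sign and 20 did not. By library size only, where the median of all genes moved from -0.03 to -0.11, *Rab11b* was at -0.088, *Rab14* at -0.0049, *Rab3a* at -0.058 and *Rab9* at -0.026, and the differences used in the permutation test turned to -0.0027 for *Rab14*, -0.053 for *Rab3a* and -0.024 for *Rab9*. With limma-voom *Rab11b* was at -0.059. Leaving out 1 pool gave ranges across 0 for *Rab11b* (-0.44 to 0.22), *Rab3a* (-0.078 to 0.18), *Rab3b* (-0.12 to 0.77), *Rab4a* (-0.056 to 0.31), *Rab5a* (-0.0041 to 0.30), *Rab7* (-0.25 to 0.14), *Rab9* (-0.0027 to 0.14) and *Rab2a* (-0.11 to 0.070). The cause was not tested.

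The labels number the pools 1 to 3 in each group and do not say that the numbers pair them. In their deviations from the group means, same-numbered pools correlated at 0.296, 0.101 and -0.0303. Their mean was 0.122, beside -0.061 for pools with different numbers. With 3 pools in each group, these values cannot decide whether the numbers pair the pools. With the replicate block, 2 members (*Rab2b* and *Rab5c*) had an unadjusted p under 0.05, *Rab11b* was at -0.061, and 0 members and 0 genes were called. Low members such as *Rab5c* (SE 0.55) and *Rab27a* (SE 0.50), with between 4 and 38 counts a pool, are uncertain. The SE was larger still for *Rab23* (1.01) and *Rab3d* (0.77), which had more reads but uneven pools.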
